A study of Mus musculus with 19 samples.

Results

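The comparison set 4 libraries of cerebral microvessels from mice exposed to a nicotine-free electronic cigarette (titled Nic-free) against 4 libraries from unexposed mice (titled air). These were chosen by their titles and make up 8 of the 19 libraries of the series. The other 11 came from mice exposed to an e-cigarette with nicotine (Nic, 3 libraries), to smoke (smoke, 4) or to room air (Room-air, 4). Every library came from male C57BL/6 mice, bought at 7 weeks of age and kept on a 12-hour light cycle. Both the air and the Room-air libraries carry the treatment label of room air, and no label says which of them is the control of the e-cigarette groups. The air set was used here because it was the unexposed set nearer to the Nic-free libraries in overall profile. That choice rests on the same counts and favours fewer and smaller differences, so their number and size below are partly set by it. The duration and dose of exposure, the age and clock time at collection, and any litter, batch or day are not given. Nothing states that each library came from a separate animal, so the p-values measure the spread between these libraries, which may in part be technical.

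The endothelial cells of brain microvessels are joined by tight junctions and carry selective transporters, which together form the blood-brain barrier. Pericytes, the endfeet of astrocytes, perivascular macrophages and microglia lie against these vessels, and preparations of microvessels usually carry some RNA of neurons and glia. Nicotine-free e-cigarettes heat a liquid of propylene glycol, glycerol and usually flavourings into an aerosol, so this comparison addresses the aerosol without nicotine.

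Polyadenylated RNA was read as strand-specific single ends of 80 nt, and the deposited counts per gene summed to 15200536 to 19137859 in Nic-free and 9761373 to 13490373 in air. Reads assigned to no gene feature made up 42.1 ± 2.58% of reads in Nic-free and 35.4 ± 1.63% in air (SD, n = 4 each), and the groups did not overlap (exact two-sided permutation p 0.0286, the smallest that 4 against 4 libraries allow). On the first principal component of the 8 libraries, with 32.4% of the variance, Nic-free lay at −7.36 to 30.02 and air at −29.35 to 0.14, so the groups overlapped there. Choroid plexus markers took 0.0915 to 1.88% of counts in Nic-free and 0.379 to 2.50% in air, and varied more within than between the groups. All 25 endothelial markers and all 12 pericyte markers were tested, but neuron markers took 1.43 to 1.64% of counts in Nic-free and 1.24 to 1.53% in air, against 0.310 to 0.469% and 0.210 to 0.376% for the endothelial markers.

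Levels are given as CPM, counts per 1000000 gene counts of a library, and a gene is called higher or lower at an adjusted p under 0.05 in edgeR's quasi-likelihood test. Of 15667 genes tested, 851 (5.43%) were higher in Nic-free and 386 (2.46%) were lower, 7.9% in all. The called changes were mostly small, with a median log2 fold change of 0.46 among the genes that rose and −0.39 among those that fell. Only 68 genes rose and 10 fell by 2-fold or more. The median over all genes tested was −0.01. Without regard to calls, library values of the groups did not overlap for 15.8% of the genes tested (8.7% higher and 7.13% lower in Nic-free). Among all genes tested, 185 (1.18%) lay in all 4 Nic-free libraries above all 15 other libraries of the series, and 113 (0.721%) lay below all 15. Of these, 146 were among the 851 higher genes and 55 among the 386 lower genes. The 15 libraries include the 4 air libraries that made the calls, so these overlaps are partly set by the calls. Leaving out Nic-free 2 left 544 calls and leaving out Nic-free 3, Nic-free 4 or air 2 left 783, 674 or 777, and 36 of the 98 called genes named here passed in each of 19 alternative analyses.

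**Figure D1:**
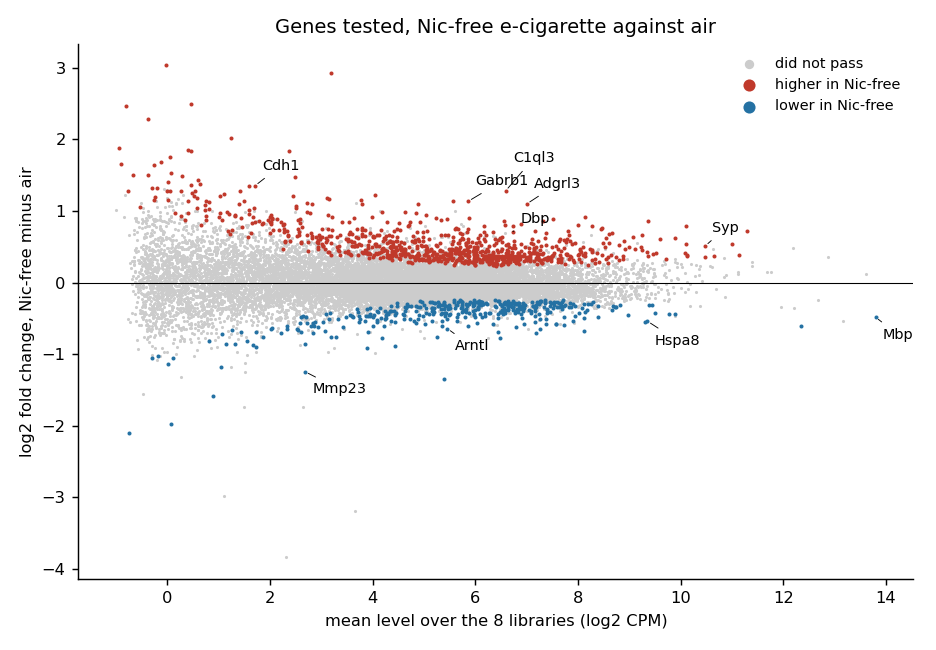
Each point is 1 of 15667 genes, with its mean level over the 8 libraries (log2 CPM) on the horizontal axis and the log2 fold change of Nic-free minus air on the vertical axis. Genes higher in Nic-free (851, red) outnumber those lower (386, blue), and most called genes lie within 1 log2 unit of no change.

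Gabrb1 and Adgrl3 had the lowest adjusted p-values. Gabrb1 encodes the beta 1 subunit of the GABA-A receptor, a chloride channel of inhibitory signalling (ENSMUSG00000029212, chr5:71658113-72149037, plus strand). It stood at 78.6, 87.5, 69.6 and 83.8 CPM in Nic-free 1 to 4 and 35.7, 38.1, 36.0 and 36.2 CPM in air 1 to 4. The lowest Nic-free value lay far above the highest air value (log2 fold change 1.14 ± 0.08 (SE), adjusted p 2.05e-05). Its level was 40.9 to 61.4 CPM in Nic, 31.1 to 36.3 CPM in smoke and 22.1 to 42.5 CPM in Room-air, all below the Nic-free libraries. Adgrl3, which encodes the adhesion receptor latrophilin 3 (ENSMUSG00000037605, chr5:81020138-81825133, plus strand), stood at 155, 187, 173 and 184 CPM in Nic-free 1 to 4 and 86.3, 76.8, 78.4 and 86.1 CPM in air 1 to 4. The groups did not overlap (log2 fold change 1.10 ± 0.08 (SE), adjusted p 2.05e-05), while the Nic libraries ran from 87.1 to 183 CPM, so that some reached the Nic-free levels.

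C1ql3, a secreted C1q-like protein of synapses (ENSMUSG00000049630, chr2:13003457-13011806, minus strand), stood at 135, 155, 114 and 143 CPM in Nic-free 1 to 4 and 58.6, 42.3, 60.6 and 63.8 CPM in air 1 to 4. No air library came near the Nic-free range (log2 fold change 1.28 ± 0.13 (SE), adjusted p 0.000745), and neither did the other groups, with 57.3 to 90.2 CPM in Nic as the nearest. Cdh13, which encodes T-cadherin, an adiponectin-binding cadherin of vessels and neurons, stood at 86.4, 96.3, 87.5 and 93.4 CPM in Nic-free 1 to 4 and 57.0, 52.1, 46.6 and 54.6 CPM in air 1 to 4. The spread within each group was small beside the difference (log2 fold change 0.80 ± 0.08 (SE), adjusted p 0.000254). Cd47, the signal by which cells hold off phagocytes, averaged 152 ± 12.1 CPM in Nic-free and 86.3 ± 4.06 CPM in air (SD, n = 4 each) and rose as well (log2 0.82, adjusted p 0.000254). Nptxr, the neuronal pentraxin receptor, averaged 846 ± 51.0 CPM in Nic-free and 466 ± 52.9 CPM in air (log2 0.87, adjusted p 0.000676). Cntnap5a, a contactin-associated protein of the neurexin family (log2 1.22), its relative Cntnap5c (log2 1.21) and Lypd1, which modulates nicotinic receptors (log2 0.71), also rose, as did the ubiquitin ligase of DNA repair Rnf168 (log2 0.88) and BC005561, a gene without an assigned name (log2 1.14). How strand was set in counting is not given in the sources used here, so counts are less certain for genes that overlap a gene on the opposite strand. These are 40 of the 98 called genes named here. Of the genes with the lowest adjusted p or the largest changes they are Gabrb1, Adgrl3, C1ql3, Cdh13, Cntnap5a, Cntnap5c, Lypd1, Il6ra, Prg4, Mir99ahg, Adam8, Col24a1, Plekhg4, Tuba8 and Sec1. Among the pathway lists they are Slc7a5, Wnt7b, Col4a2, Dbp, Arntl, Ciart, Nr1d1, Tef, Rora, Dusp1, Jun, Hk2, Slc7a11, Ftl1, Rps2 and Rbm25. Among the cell type markers they are Cx3cr1, Csf1r, Abcc9, Syp, Slc32a1, Slc1a2, Mbp, Cspg5 and Alas2.

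The remaining genes among the 12 largest rises had low levels. Cdh1, epithelial cadherin, stood at 3.16, 5.25, 5.38 and 4.93 CPM in Nic-free 1 to 4 and 2.39, 1.54, 1.11 and 2.36 CPM in air 1 to 4 (log2 fold change 1.35 ± 0.25 (SE), adjusted p 0.00661), with no overlap. Il6ra, the receptor of interleukin 6 (11.8, 13.8, 12.6 and 10.7 CPM in Nic-free 1 to 4 and 6.63, 4.92, 4.52 and 5.85 CPM in air 1 to 4), rose by log2 1.17 (adjusted p 0.000771). Ano2, a calcium-gated chloride channel (log2 1.28), Ccn1, a matrix protein of growing vessels formerly called Cyr61 (log2 1.15), and Prg4, the joint lubricant lubricin (log2 1.11), were also higher. Against Room-air, in a separate fit that shares the Nic-free libraries, Cdh1, Il6ra and Prg4 had log2 fold changes of 0.20, −0.20 and −0.04, none of which passed. The call of Ccn1 was lost on leaving out 1 library: Ccn1 without Nic-free 1 or 2 or air 2, 3 or 4 (0.0548 to 0.0786), with the adjusted p in brackets.

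Mir99ahg (ENSMUSG00000090386, chr16:77236317-77773427, plus strand) is a long non-coding RNA gene that holds 3 microRNA hairpins, and it was the non-coding gene among those with the lowest adjusted p. Its polyadenylated transcript stood at 44.3, 43.0, 33.8 and 39.9 CPM in Nic-free 1 to 4 and 21.7, 17.0, 16.9 and 20.3 CPM in air 1 to 4. The groups did not overlap (log2 fold change 1.09 ± 0.11 (SE), adjusted p 0.000304). The mature 5′ microRNAs encoded there are printed from RefSeq (GRCm38.p6), because they are the products for which the locus is known. Each runs 5′ to 3′, with the seed, bases 2 to 8, in capitals. They have different seeds, and their own levels were not measured by this assay. The first lies at chr16:77598940-77598961, the next at chr16:77599672-77599693 and the last at chr16:77646279-77646300, all on the plus strand.
mmu-miR-99a-5p: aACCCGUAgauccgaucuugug
mmu-let-7c-5p: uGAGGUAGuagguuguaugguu
mmu-miR-125b-5p: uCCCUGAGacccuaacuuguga

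The genes that fell most included enzymes of the extracellular matrix. Mmp23, a membrane metalloproteinase (ENSMUSG00000029061, chr4:155650655-155653384, minus strand), stood at 3.35, 3.83, 4.08 and 3.95 CPM in Nic-free 1 to 4 and 10.6, 6.66, 8.38 and 10.6 CPM in air 1 to 4. Each Nic-free value was below each value of the 15 other libraries (log2 fold change −1.24 ± 0.16 (SE), adjusted p 0.00103), among which Nic ran from 6.50 to 11.1 CPM, smoke from 5.31 to 9.64 CPM and Room-air from 6.53 to 8.01 CPM. Adam8, a metalloprotease that sheds cell-surface proteins, stood at 16.7, 13.2, 15.7 and 14.7 CPM in Nic-free 1 to 4 and 29.1, 27.0, 23.2 and 32.5 CPM in air 1 to 4 (log2 fold change −0.88 ± 0.11 (SE), adjusted p 0.000875). It too lay below all other libraries of the series. The collagens Col20a1 (log2 −0.78) and Col24a1 (log2 −0.76) and Robo3, an axon guidance receptor (log2 −0.78), fell as well. Derl3, which helps misfolded proteins leave the endoplasmic reticulum, was at 1.18 to 1.31 CPM in Nic-free, against 2.22 to 3.93 CPM in air (log2 −1.18, adjusted p 0.00863).

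Further falls were found for Plekhg4 (log2 −0.91), the embryonic myosin Myh3 (−0.90), the receptor of anti-Müllerian hormone Amhr2 (−0.88), the tubulin Tuba8 (−0.85) and the fucosyltransferase Sec1 (−0.76). On leaving out 1 library, calls were lost for Plekhg4 without any library but air 3 (0.0527 to 0.108), Myh3 without Nic-free 1, 2 or 4 or air 3 or 4 (0.0688 to 0.0845), Amhr2 without Nic-free 2 (0.0524) and Tuba8 without Nic-free 1, 2 or 3 or air 2 or 3 (0.0569 to 0.0949), with the adjusted p in brackets.

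**Figure D2:**
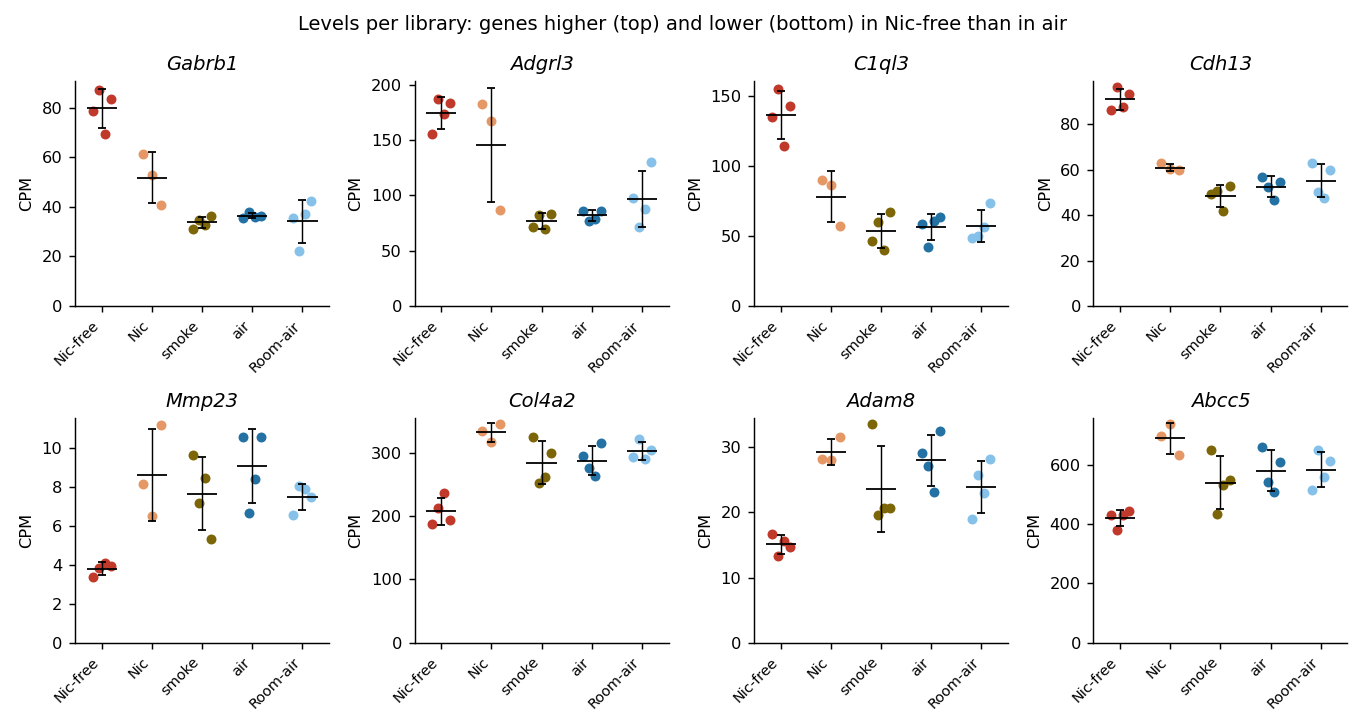
Levels of 8 genes (CPM) per library in the 5 groups, with the mean as a horizontal line and the SD as a bar (n = 4, and 3 in Nic). Gabrb1, C1ql3 and Cdh13 lie higher in all Nic-free libraries than in all 15 other libraries, and Mmp23, Col4a2 and Adam8 lie lower.

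Of the genes that build the barrier, the junction genes gave no call against air and the transporters gave several. None of the 20 tight and adherens junction genes passed, and none had an unadjusted p under 0.05 either, against 7.9% of all genes called and 25.0% with such a p. Their median log2 fold change was 0.12. Cldn5, the main claudin of brain endothelium, stood at 286, 380.4, 536 and 327 CPM in Nic-free 1 to 4 and 401, 294, 193 and 244 CPM in air 1 to 4. These ranges overlapped widely (log2 0.44, adjusted p 0.352). Ocln, which encodes occludin, averaged 34.7 ± 4.20 CPM in Nic-free and 30.1 ± 6.67 CPM in air (log2 0.21, adjusted p 0.372), and the scaffold gene Tjp1 had log2 −0.04 (adjusted p 0.832). Against Room-air, Ocln was lower in Nic-free (log2 −0.94, adjusted p 0.000411), and Cldn5 and Tjp1 did not pass (log2 0.13 and −0.25; adjusted p 0.697 and 0.116).

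Of 25 barrier transporters, 7 rose and 1 fell, 32.0% against 7.9% of all genes, with a median log2 fold change of 0.34. Most of the rises were carriers of amino acids, iron and lipids. Slc7a1, the carrier of cationic amino acids, stood at 76.6, 83.3, 84.0 and 77.2 CPM in Nic-free 1 to 4 and 59.8, 49.1, 48.8 and 51.8 CPM in air 1 to 4 (log2 fold change 0.62 ± 0.08 (SE), adjusted p 0.000875), with no overlap. Mfsd2a, which carries lipids with docosahexaenoic acid and restrains transcytosis, stood at 55.4, 55.5, 72.7 and 47.0 CPM in Nic-free 1 to 4 and 42.6, 39.1, 34.0 and 33.6 CPM in air 1 to 4 (log2 fold change 0.64 ± 0.12 (SE), adjusted p 0.00979). The groups were apart here as well. Slc7a5, the carrier of large neutral amino acids and of thyroid hormone, ran from 111 to 178 CPM in Nic-free and 69.2 to 91.0 CPM in air (log2 0.79, adjusted p 0.0127), and its partner chain Slc3a2 rose by log2 0.39. Slc16a1, the carrier of lactate and ketone bodies (log2 0.58), the transferrin receptor Tfrc (log2 0.44) and the iron exporter Slc40a1 (log2 0.63) rose too. On leaving out 1 library the list had 5 to 9 rises, and Tfrc without Nic-free 3 or 4 or air 2 or 3 (0.0507 to 0.0581) and Slc40a1 without Nic-free 1, 2 or 3 or air 2 or 4 (0.0536 to 0.0939) lost their calls.

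Abcc5, an efflux pump of cyclic nucleotides, was the transporter that fell, at 431, 380.2, 429.9 and 443 CPM in Nic-free 1 to 4 and 660.2, 541, 508 and 610.0 CPM in air 1 to 4 (log2 fold change −0.46 ± 0.09 (SE), adjusted p 0.0102). Slc2a1, the glucose transporter of the barrier, averaged 365 ± 89.9 CPM in Nic-free and 273 ± 58.4 CPM in air (log2 0.43, adjusted p 0.24), and the efflux pump gene Abcb1a had log2 0.30 (adjusted p 0.341). These directions depend on which unexposed set is used. Against Room-air, 25.3% of 16551 genes were called, and the air set itself differed from Room-air at 24.3% of 16244 genes. There Nic-free had log2 fold changes of −1.11 for Slc2a1, −0.73 for Slc7a5 and −0.37 for Mfsd2a (adjusted p 0.000605, 0.00293 and 0.0351), while air minus Room-air was −1.54, −1.51 and −1.01. Abcc5 was lower than in Room-air too (log2 −0.43, adjusted p 0.00606).

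Of 19 Wnt receptors and endothelial targets, 3 rose and none fell, 15.8% against 7.9% of all genes, with a median log2 fold change of 0.40, and 3 to 7 rose on leaving out 1 library, the most without air 1. Wnt signals from the brain hold brain endothelium in its barrier state. The ligand genes Wnt7b, which averaged 36.8 ± 4.33 CPM in Nic-free and 25.9 ± 1.01 CPM in air (log2 fold change 0.51 ± 0.09 (SE), adjusted p 0.00657), and Ndp, encoding norrin (8.16, 8.96, 8.26 and 9.21 CPM in Nic-free 1 to 4 and 4.93, 5.94, 5.63 and 5.56 CPM in air 1 to 4; log2 0.66, adjusted p 0.00785), both rose. The co-receptor gene Lrp5 was higher than in air (log2 0.73, adjusted p 0.0118) and lower than in Room-air (log2 −0.75, adjusted p 0.00114). Fzd4, the receptor of norrin, had 10.4, 4.57, 4.91 and 4.01 CPM in Nic-free 1 to 4 and 5.01, 3.48, 3.93 and 6.22 CPM in air 1 to 4 (log2 0.36, adjusted p 0.533). Nic-free 1 lay far above the other Nic-free libraries. Fzd4 was lower than in Room-air both in Nic-free (edgeR log2 −2.13, adjusted p 0.00226) and in air (log2 −2.48, adjusted p 2.68e-05).

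Of 21 basement membrane and matrix genes, 2 rose and 1 fell, 14.3% against 7.9% of all genes. Mmp14, a membrane-bound collagenase, stood at 18.8, 23.8, 22.0 and 18.4 CPM in Nic-free 1 to 4 and 12.0, 7.99, 10.9 and 13.2 CPM in air 1 to 4 (log2 fold change 0.92 ± 0.14 (SE), adjusted p 0.00244). Timp2, its partner in activating gelatinase A and an inhibitor of metalloproteinases, stood at 301, 255, 258 and 292 CPM in Nic-free 1 to 4 and 189, 177, 183 and 195 CPM in air 1 to 4 (log2 fold change 0.58 ± 0.08 (SE), adjusted p 0.00126). Neither gene had overlapping groups. Against Room-air neither passed (log2 −0.18 for Mmp14 and −0.04 for Timp2; adjusted p 0.29 and 0.773), and with both unexposed sets as control Mmp14 had an adjusted p of 0.0571. Col4a2, a chain of the collagen IV network of the basement membrane, was the one that fell, at 188, 212, 236 and 193 CPM in Nic-free 1 to 4 and 296, 276, 263 and 316 CPM in air 1 to 4 (log2 fold change −0.47 ± 0.09 (SE), adjusted p 0.00812), below all 15 other libraries.

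**Figure D3:**
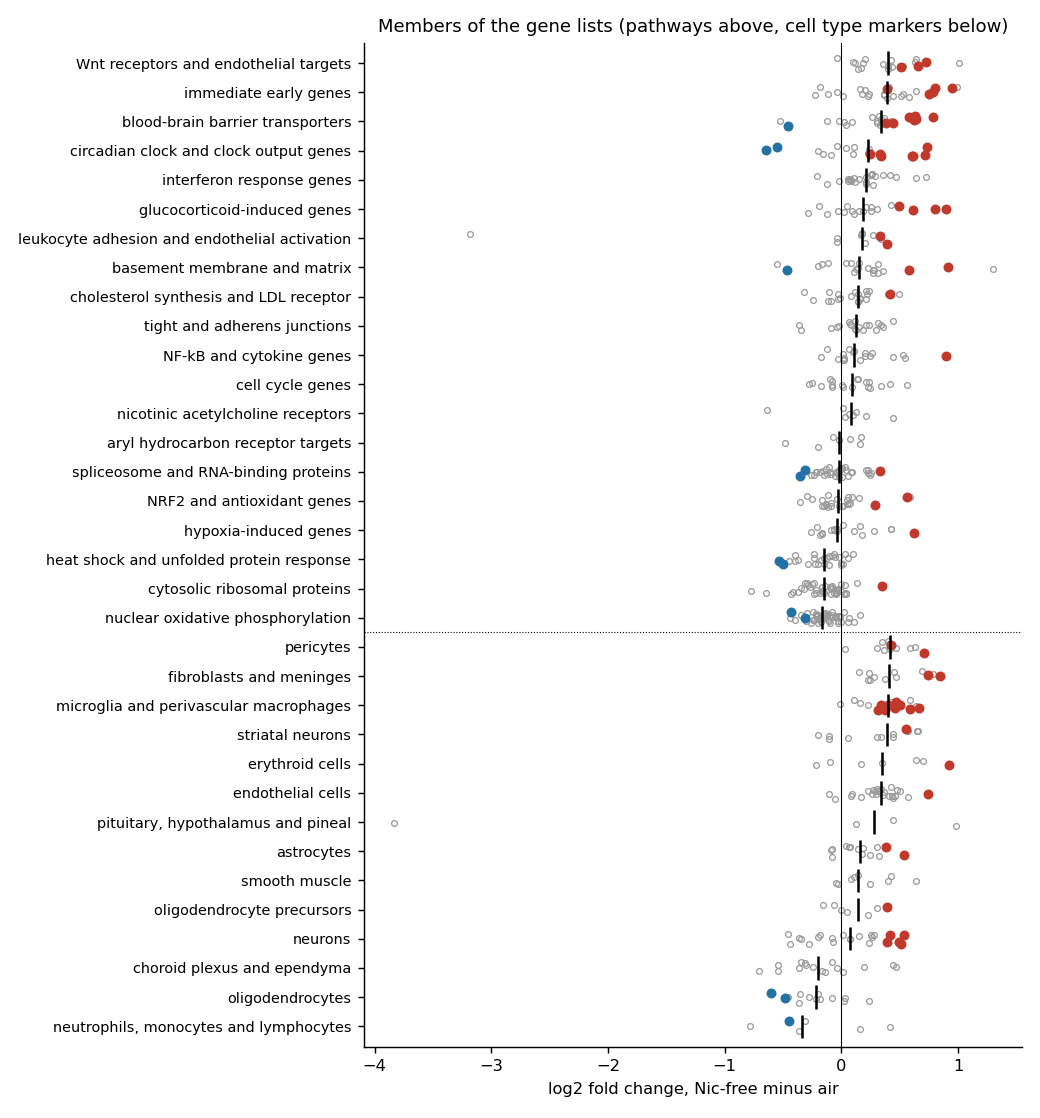
Log2 fold changes of Nic-free minus air for the tested members of 34 gene lists, with pathways above the dotted line and cell type markers below it. Filled points passed the test (red higher, blue lower), open points did not, and black bars are medians. The microglia list has 10 filled points and the clock list 9, and the oxidative phosphorylation and ribosomal protein lists lie mostly left of 0.

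The circadian clock is a loop in which Clock and Arntl (BMAL1) switch on the Per, Cry and Nr1d genes, whose products then hold it back, and in which Dbp, Tef and Nfil3 pass the rhythm on. Of 19 clock and clock output genes, 7 rose and 2 fell, 47.4% against 7.9% of all genes. Dbp (ENSMUSG00000059824, chr7:45705088-45710203, plus strand) stood at 129, 126, 152 and 121 CPM in Nic-free 1 to 4 and 81.9, 71.4, 75.9 and 94.1 CPM in air 1 to 4. The lowest Nic-free value exceeded the highest air value (log2 fold change 0.71 ± 0.10 (SE), adjusted p 0.00126). Arntl (ENSMUSG00000055116, chr7:113207465-113314126, plus strand) stood at 35.5, 34.0, 31.9 and 35.3 CPM in Nic-free 1 to 4 and 57.1, 60.4, 46.4 and 50.6 CPM in air 1 to 4, with every Nic-free value below every air value (log2 fold change −0.64 ± 0.09 (SE), adjusted p 0.00126).

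Ciart, a repressor of the Clock and Arntl pair, stood at 17.4, 16.6, 19.6 and 15.5 CPM in Nic-free 1 to 4 and 9.48, 11.4, 9.93 and 11.1 CPM in air 1 to 4 (log2 fold change 0.73 ± 0.11 (SE), adjusted p 0.00205). Per1 stood at 119, 101, 107 and 103 CPM in Nic-free 1 to 4 and 66.1, 89.8, 64.4 and 62.5 CPM in air 1 to 4 (log2 fold change 0.62 ± 0.11 (SE), adjusted p 0.00583), where air 2 lay far above the other air libraries. Nr1d1, the repressor of Arntl also called REV-ERB alpha, ran from 86.8 to 115 CPM in Nic-free and 54.0 to 72.2 CPM in air (log2 0.61, adjusted p 0.00661). Per3 (log2 0.34), Tef (0.25) and Rora (0.33) rose less, and Nfil3, the counterpart of Dbp and Tef at their shared sites, fell (log2 −0.55, adjusted p 0.0416). Per2 did not pass (log2 −0.09, adjusted p 0.732). On leaving out 1 library 4 to 6 members rose, with 4 without Nic-free 1 or Nic-free 2, and Per3 without Nic-free 1, 2 or 3 or air 2 (0.0571 to 0.0626), Tef without any 1 of the 8 libraries (0.0502 to 0.107), Rora without Nic-free 1, 2 or 4 or air 1, 3 or 4 (0.0671 to 0.132) and Nfil3 without Nic-free 2, 3 or 4 or air 1, 2 or 3 (0.0721 to 0.126) lost their calls (adjusted p in brackets).

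Dbp, Ciart, Nr1d1 and Arntl passed in each of 19 alternative analyses. In smoke Dbp stood at 143 to 179.6 CPM and Arntl at 35.3 to 38.5 CPM, so that smoke lay nearer to Nic-free than to air in both. In Nic they stood at 79.2 to 89.5 CPM and 52.8 to 57.2 CPM, and in Room-air at 63.8 to 86.3 CPM and 42.8 to 45.1 CPM. Against Room-air, Nic-free was higher for Dbp (log2 0.83, adjusted p 0.000376) and lower for Arntl (log2 −0.33, adjusted p 0.00767), but lower for Per1 (log2 −0.42, adjusted p 0.0161). The clock time at collection is not given, so exposure and the time of day cannot be told apart here.

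**Figure D4:**
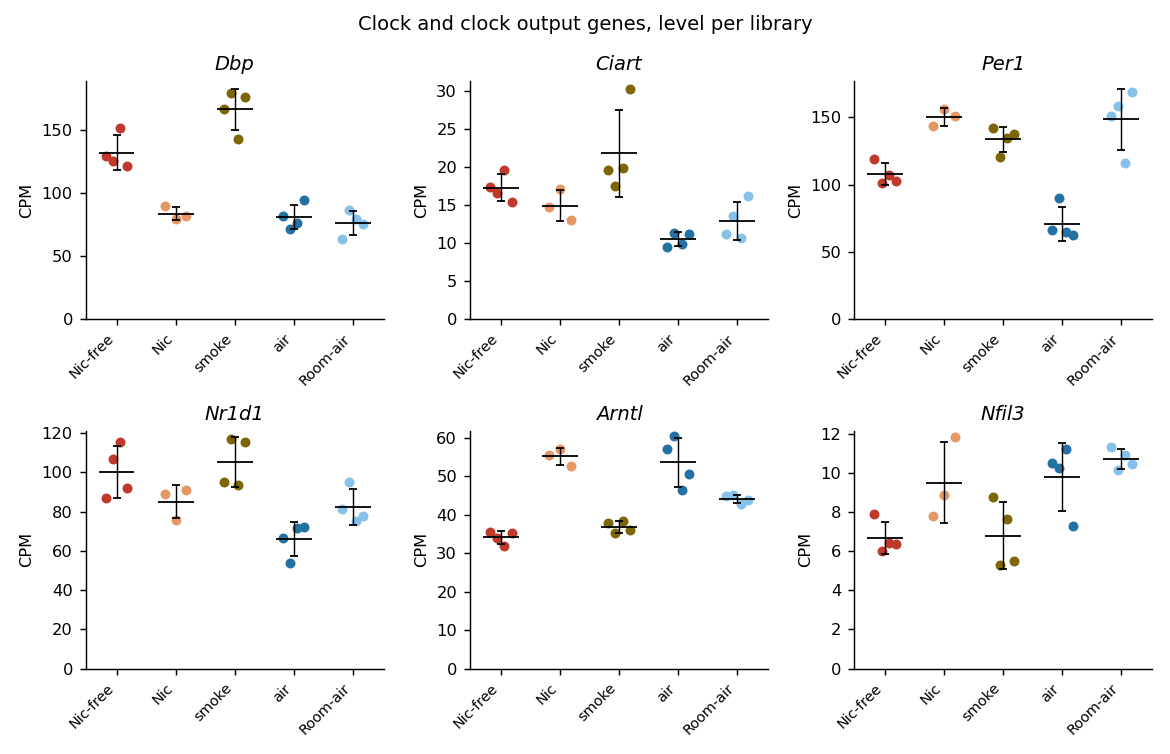
Levels (CPM) of 6 clock and clock output genes per library in the 5 groups, with means as lines and SD as bars (n = 4, and 3 in Nic). Dbp, Ciart, Per1 and Nr1d1 lie higher and Arntl and Nfil3 lower in Nic-free than in air, and the mean of smoke lies on the Nic-free side of the mean of air in each of these genes.

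Clock and Arntl bind as a pair to the E-box CACGTG, which reads alike on both strands. It was searched in the 250 bases upstream of RefSeq gene starts (GRCm38.p6), for which 17 of the 19 clock genes had an entry. It was found in 3 of the 9 called clock genes, Ciart, Per1 and Tef, and in 5 of the 17, against 6.86% of all genes with a window. Bhlhe41 and Cry1 also held it and were not called, while the called Dbp, Arntl and Nr1d1 did not hold it. The list was made of clock genes, so its share does not bear on which of them were called. The windows of the called genes with the most and with the earliest motif are shown 5′ to 3′, with CACGTG in capitals, since both genes rose. That of Ciart (chr3:95882229-95882478, minus strand) holds it 3 times, starting 116, 58 and 44 bases before the gene start. That of Per1 (chr11:69098699-69098948, plus strand) holds it once, 166 bases before. Another Per1 window (chr11:69099902-69100151) does not hold it. A match is a description of these letters and no measure of binding.
Ciart: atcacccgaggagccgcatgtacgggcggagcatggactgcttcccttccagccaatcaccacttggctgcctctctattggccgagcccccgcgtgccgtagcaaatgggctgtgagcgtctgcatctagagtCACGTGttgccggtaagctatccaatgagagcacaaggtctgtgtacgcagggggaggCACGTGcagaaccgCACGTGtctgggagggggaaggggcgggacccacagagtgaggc
Per1: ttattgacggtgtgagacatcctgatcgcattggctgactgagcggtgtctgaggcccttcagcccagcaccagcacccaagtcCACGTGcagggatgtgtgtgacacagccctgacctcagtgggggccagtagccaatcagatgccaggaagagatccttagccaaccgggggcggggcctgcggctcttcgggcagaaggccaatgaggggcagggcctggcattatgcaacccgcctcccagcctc

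Immediate early genes, which neurons and vessel cells switch on within minutes of a stimulus, gave 5 rises and no fall among 25 tested, 20% against 7.9% of all genes, with a median log2 fold change of 0.39. Of the 25, 21 lay above 0 and 4 below. Fos, Egr1 and Npas4 did not pass (log2 0.16, −0.04 and −0.12, adjusted p 0.872, 0.952 and 0.861). Klf6, a zinc finger factor, stood at 67.9, 79.3, 71.2 and 71.8 CPM in Nic-free 1 to 4 and 52.9, 38.7, 41.1 and 40.0 CPM in air 1 to 4 (log2 fold change 0.75 ± 0.10 (SE), adjusted p 0.000875). Klf4, a flow-responsive factor of endothelium, ran from 35.9 to 51.3 CPM in Nic-free and 15.6 to 28.0 CPM in air (log2 0.94, adjusted p 0.0163). Btg2 (log2 0.79), the phosphatase gene Dusp1 (0.80) and Jun (0.39) rose as well. In each of these genes the groups did not overlap. Klf4 was lower than in Room-air (log2 −0.45, adjusted p 0.0181), and against that set Klf6, Btg2, Dusp1 and Jun did not pass.

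Of 19 genes known to be induced by glucocorticoids, 4 rose, namely Nfkbia (log2 0.90), Dusp1, Per1 and Klf9 (log2 0.49), and none fell, 21.1% against 7.9% of all genes. Without air 2 only 2 rose, and Klf9 without air 2 (0.0527) lost its call. Per1 and Dusp1 also stand in the lists above. Tsc22d3, the classical glucocorticoid target GILZ, had log2 0.19 (adjusted p 0.31). Cdkn1a, the cell cycle inhibitor p21, stood at 20.1, 25.1, 24.3 and 21.2 CPM in Nic-free 1 to 4 and 29.9, 22.6, 20.2 and 15.6 CPM in air 1 to 4, with widely overlapping groups (log2 0.05, adjusted p 0.89). Against Room-air Nfkbia was lower in Nic-free (log2 −0.60, adjusted p 0.0305) and Klf9 did not pass (log2 0.30, adjusted p 0.125). Tsc22d3 and Cdkn1a were lower there too (Tsc22d3 log2 −1.25, Cdkn1a log2 −2.10; adjusted p 0.000259 and 2.3e-07), and Cdkn1a was as far below Room-air in the air set (log2 −2.15).

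Among inflammatory genes, the share of members called was 5.26% for the NF-kB and cytokine list, 0 for the interferon list and 18.2% for the leukocyte adhesion list, against 7.9% of all genes. Of 19 NF-kB and cytokine genes that passed the filter on low counts, of 28 listed, 1 rose: Nfkbia, the inhibitor of NF-kB, at 57.5, 88.8, 101 and 59.1 CPM in Nic-free 1 to 4 and 53.6, 38.0, 35.2 and 38.2 CPM in air 1 to 4 (adjusted p 0.0472). The groups lay close at their nearest values, and Nfkbia without Nic-free 2 or 3 or air 2, 3 or 4 (0.0623 to 0.114) did not pass. Ccl2, Ccl3, Ccl4, Ccl5, Cxcl1, Cxcl2, Il1b, Il6 and Tnf were too low to be tested. None of 24 interferon response genes passed in edgeR, where 4 had an unadjusted p under 0.05. Of these 24, 21 had a log2 fold change above 0 (median 0.21), and 4 were called higher when air 1 was left out. Of 11 leukocyte adhesion genes tested, of 14 listed, Alcam (log2 0.33, adjusted p 0.0416) and Selplg, the ligand of selectins (log2 0.39, adjusted p 0.0129), rose. Icam1 stood at 9.54, 15.8, 16.6 and 11.6 CPM in Nic-free 1 to 4 and 25.2, 12.4, 7.78 and 10.1 CPM in air 1 to 4 and Vcam1 at 71.0 ± 10.8 CPM in Nic-free and 73.5 ± 14.1 CPM in air on average (log2 −0.04 and −0.04, adjusted p 0.963 and 0.89). The highest and the lowest Icam1 values were both in air. Alcam was among the calls lost on leaving out 1 library: Alcam without any library but air 1 (0.0536 to 0.108).

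Of 26 NRF2 and antioxidant genes, 2 rose, 7.69% against 7.9% of all genes: Slc7a11, the cystine carrier (log2 0.56, adjusted p 0.0188), and Ftl1, ferritin light chain (log2 0.29, adjusted p 0.032), which has near-identical copies. Without air 2 none of these rises remained called, and Slc7a11 without air 2 (0.0563) and Ftl1 without Nic-free 2 or 3 or air 1 or 2 (0.0679 to 0.116) lost their calls. Hmox1, heme oxygenase, had log2 0.59 (adjusted p 0.0761) and Nqo1 log2 −0.09 (adjusted p 0.927). None of 7 aryl hydrocarbon receptor targets tested, of 9 listed, passed, and none had an unadjusted p under 0.05. Cyp1a1 and Cyp1a2 were too low to be tested. Of 18 hypoxia genes, Hk2, a hexokinase, rose (log2 0.62, adjusted p 0.0118), 5.56% against 7.9% of all genes. Of 8 nicotinic receptor subunits tested, of 13 listed, none passed, and 2 had an unadjusted p under 0.05. Chrna4 stood at 33.0, 32.0, 33.0 and 33.0 CPM in Nic-free 1 to 4 and 31.7, 30.2, 32.0 and 31.7 CPM in air 1 to 4 and Chrna7 had log2 0.44 (adjusted p 0.147).

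Of 27 genes of the heat shock and unfolded protein responses, 2 members fell while 0 rose, 7.41% against 7.9% of all genes, and 23 had a log2 fold change below 0 (median −0.15). Hspa8, the constitutive cytosolic HSP70, stood at 596, 498, 516 and 521 CPM in Nic-free 1 to 4 and 769, 807, 843 and 689 CPM in air 1 to 4, without overlap (log2 fold change −0.54 ± 0.09 (SE), adjusted p 0.00416), and Hsph1, its nucleotide exchange partner, fell too (log2 −0.50, adjusted p 0.0145; 0.0575 without Nic-free 2). Hspa5, the chaperone BiP of the endoplasmic reticulum, had log2 −0.28 (adjusted p 0.456).

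Of 49 nuclear genes of oxidative phosphorylation, 44 had a log2 fold change below 0 (median −0.17), but only Atp5b, a subunit of ATP synthase (log2 −0.31, adjusted p 0.0386), and Uqcrq, of complex III (log2 −0.43, adjusted p 0.0464), passed, 4.08% against 7.9% of all genes. Of 43 cytosolic ribosomal protein genes, 37 lay below 0 (median −0.15). The single call, 2.33% against 7.9% of all genes, was a rise of Rps2 (log2 0.35, adjusted p 0.018), which has many processed copies. Both lists took shares of counts that overlapped between the groups, 0.663 to 0.736% in Nic-free and 0.687 to 0.836% in air for oxidative phosphorylation. Of 35 spliceosome and RNA-binding protein genes, Hnrnpc (log2 −0.36) and Hnrnpa2b1 (−0.32) fell and Rbm25 (0.33) rose, 8.57% against 7.9% of all genes. Most of these calls were lost on leaving out 1 library: Atp5b without any library but air 1 (0.0533 to 0.113), Uqcrq without any library but air 1 (0.0955 to 0.121), Rps2 without Nic-free 2 (0.0663), Hnrnpc without Nic-free 2, 3 or 4 or air 2 or 3 (0.0575 to 0.0848), Hnrnpa2b1 without Nic-free 2, 3 or 4 or air 1 or 2 (0.0664 to 0.0991) and Rbm25 without Nic-free 1, 2 or 4 or air 2 or 3 (0.0634 to 0.0943), with the adjusted p in brackets. Without air 1, 10 oxidative phosphorylation genes fell, and without air 4, 3 ribosomal protein genes fell. None of 19 cell cycle genes tested, of 22 listed, passed, and 3 had an unadjusted p under 0.05.

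Among the cell type markers, those of microglia and perivascular macrophages, the resident phagocytes, held most calls. Of 17 tested, 10 rose and none fell, 58.8% against 7.9% of all genes, with a median log2 fold change of 0.40. Cx3cr1, the fractalkine receptor (ENSMUSG00000052336, chr9:119901616-120069879, minus strand), stood at 83.5, 98.8, 81.1 and 99.4 CPM in Nic-free 1 to 4 and 60.7, 51.2, 59.6 and 57.5 CPM in air 1 to 4. Each Nic-free value exceeded each air value (log2 fold change 0.67 ± 0.09 (SE), adjusted p 0.00115). Siglech, a sialic acid-binding receptor of microglia, stood at 26.6, 24.4, 23.5 and 31.4 CPM in Nic-free 1 to 4 and 17.7, 16.8, 17.6 and 18.6 CPM in air 1 to 4 (log2 fold change 0.59 ± 0.10 (SE), adjusted p 0.0046), also without overlap.

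The complement genes C1qa, C1qb and C1qc rose by similar amounts (log2 0.37, 0.40 and 0.37), as did Tyrobp (0.47), Tmem119 (0.46), Csf1r, the receptor on which microglia depend (0.34), and Trem2 (0.31). On leaving out 1 library 7 to 10 markers rose, and Csf1r without air 2 (0.0502), C1qa without Nic-free 2, 3 or 4 or air 4 (0.0513 to 0.062), Tmem119 without Nic-free 2, 3 or 4 or air 2 or 3 (0.0518 to 0.0662), Tyrobp without Nic-free 2 or air 4 (0.0651 to 0.0762) and Trem2 without any library but Nic-free 2 (0.055 to 0.103) lost their calls (adjusted p in brackets). Markers that did not pass included Aif1, which encodes IBA1 (12.8, 16.7, 11.7 and 14.9 CPM in Nic-free 1 to 4 and 10.1, 11.6, 10.1 and 10.2 CPM in air 1 to 4; log2 0.43, adjusted p 0.0567), P2ry12 (log2 0.10, adjusted p 0.512) and the perivascular macrophage genes Mrc1 (0.23, adjusted p 0.428), Cd163 (0.59, adjusted p 0.133) and Lyve1 (0.64, adjusted p 0.334). The list summed to 0.0978 to 0.108% of counts in Nic-free and 0.0748 to 0.0796% in air, without overlap. In bulk RNA, more cells of a type and more RNA per cell cannot be told apart. Against Room-air, Cx3cr1 and Siglech were higher as well (log2 0.49 and 0.41; adjusted p 0.00247 and 0.0193).

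**Figure D5:**
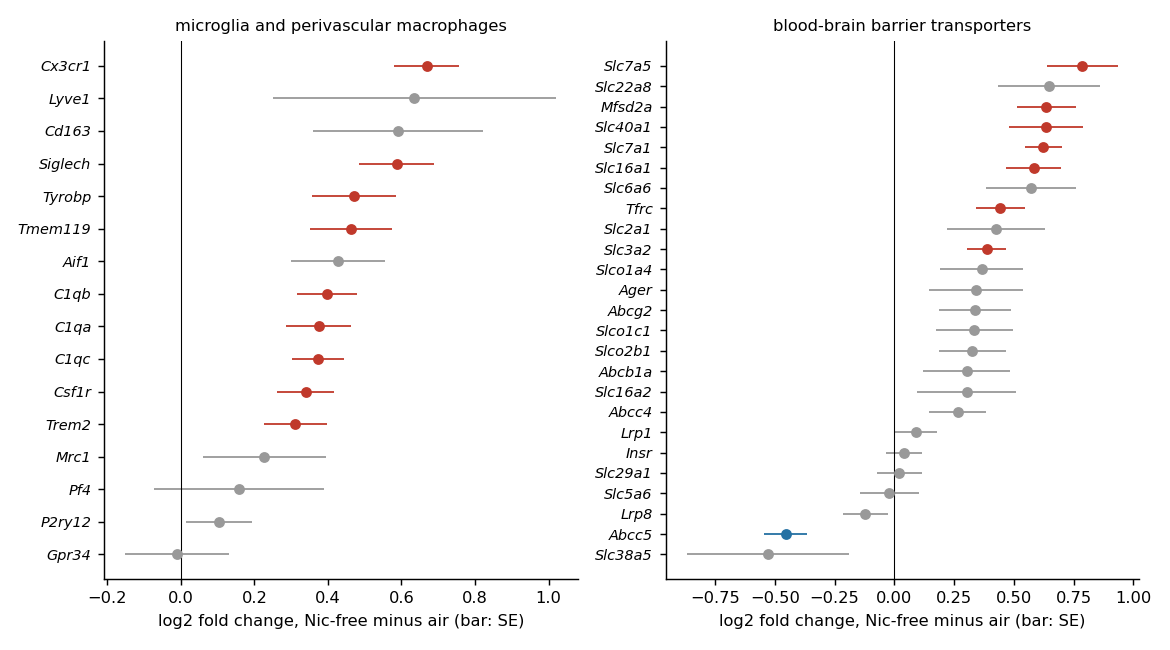
Log2 fold change of Nic-free minus air with its standard error for 16 of the 17 tested markers of microglia and perivascular macrophages (left) and 25 barrier transporters (right). Red points passed as higher (9 and 7 genes), blue as lower (Abcc5), and grey points did not pass.

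Of 25 endothelial markers, 23 had a log2 fold change above 0 (median 0.34) and 1 passed, Flt1, the VEGF receptor 1, at 366, 479, 524 and 369 CPM in Nic-free 1 to 4 and 341, 262, 185 and 255 CPM in air 1 to 4 (log2 fold change 0.75 ± 0.18 (SE), adjusted p 0.0403). Of the endothelial markers 4.0% were called, and of the pericyte and fibroblast markers 16.7% each, against 7.9% of all genes. Of 12 pericyte markers, each above 0 (median 0.42), Abcc9 (log2 0.42) and Anpep (0.71) rose, and of 12 fibroblast markers, also each above 0 (median 0.41), the collagens Col1a1 (0.85) and Col1a2 (0.75) rose. The endothelial markers summed to 0.310 to 0.469% of counts in Nic-free and 0.210 to 0.376% in air, and those of pericytes to 0.108 to 0.154% in Nic-free and 0.0716 to 0.119% in air. These ranges overlapped. The medians of these vessel cell lists lay above 0, as did those of the transporter and Wnt lists above, and the part of vessel cell RNA in those calls was not tested. On leaving out 1 library, calls were lost for Flt1 without Nic-free 2 or 3 or air 2 or 4 (0.0768 to 0.0988), Abcc9 without Nic-free 1, 2 or 3 or air 2, 3 or 4 (0.0515 to 0.0733), Anpep without Nic-free 2, 3 or 4 or air 2, 3 or 4 (0.0882 to 0.113), Col1a1 without Nic-free 2, 3 or 4 or air 2 or 4 (0.0672 to 0.103) and Col1a2 without Nic-free 2, 3 or 4 or air 2 or 4 (0.0614 to 0.0826). More markers rose without 1 library too, with 3 endothelial markers without air 1, and 5 pericyte and 4 fibroblast markers without Nic-free 1. Against Room-air Abcc9 was lower in Nic-free (log2 −0.49, adjusted p 0.00417), and Flt1, Anpep, Col1a1 and Col1a2 did not pass (log2 −0.30, −0.23, 0.28 and 0.03). None of 9 smooth muscle markers tested passed, and 1 had an unadjusted p under 0.05.

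Of 22 neuron markers, 5 rose, 22.7% against 7.9% of all genes. Syp, synaptophysin of synaptic vesicles, stood at 1628, 1672, 1592 and 1813 CPM in Nic-free 1 to 4 and 1222, 1082, 1283 and 1135 CPM in air 1 to 4, without overlap (log2 fold change 0.51 ± 0.09 (SE), adjusted p 0.00463). Rtn1 (log2 0.53), Slc17a7, the glutamate loader of vesicles (0.42), the AMPA receptor subunit Gria2 (0.39) and Slc32a1, the GABA loader (0.50), rose too, but the median of the list was 0.07 and 9 members lay below 0. Among 12 striatal markers Foxp1 rose (log2 0.55, adjusted p 0.00145), 8.33% against 7.9% of all genes. Nrgn, a forebrain neuron gene, did not pass (log2 0.07, adjusted p 0.835). Of 14 astrocyte markers Sox9 (log2 0.54) and the glutamate carrier Slc1a2 (0.38) rose, 14.3% against 7.9% of all genes. Gfap had log2 0.31 (adjusted p 0.0729) and S100b 0.06 (adjusted p 0.776). Calls were lost on leaving out 1 library for Slc17a7 without Nic-free 2 or 4 (0.0646 to 0.0751), Gria2 without Nic-free 1, 2 or 4 or air 2, 3 or 4 (0.0805 to 0.119), Slc32a1 without Nic-free 3 or 4 or air 2, 3 or 4 (0.0904 to 0.111) and Slc1a2 without Nic-free 2, 3 or 4 or air 1, 2 or 4 (0.0613 to 0.118), and 2 neuron markers rose without Nic-free 4. Leaving out air 1 gave 4 striatal rises and leaving out air 2 gave 4 astrocyte rises. Gabrb1, Adgrl3, C1ql3 and Nptxr, described above, are expressed in neurons as well, and the part of neuronal RNA in their rises was not tested.

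Markers of oligodendrocytes, the cells that make myelin, leaned the other way. Of 13, 2 fell and none rose, 15.4% against 7.9% of all genes (median −0.22). Mobp stood at 4327, 4168, 4059.9 and 4006 CPM in Nic-free 1 to 4 and 5402, 8109, 6512 and 5268 CPM in air 1 to 4 (log2 fold change −0.60 ± 0.13 (SE), adjusted p 0.0159). Mbp, myelin basic protein, averaged 11866 ± 361 CPM in Nic-free and 16637 ± 2626 CPM in air (SD, n = 4 each; log2 −0.48, adjusted p 0.031). The groups did not overlap in either gene, and the Nic-free values lay close together while air 2 stood highest. On leaving out 1 library, Mobp without Nic-free 3 (0.0505) and Mbp without Nic-free 1, 2, 3 or 4 or air 2 or 3 (0.0537 to 0.0916) lost their calls. The list took 1.91 to 2.09% of counts in Nic-free and 2.32 to 3.23% in air. Against Room-air both genes were higher in Nic-free (log2 0.52 and 0.62; adjusted p 0.00296 and 0.00229).

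None of 16 choroid plexus markers passed, and 1 had an unadjusted p under 0.05. Ttr, transthyretin, the most abundant of them, stood at 17614, 7213, 4233 and 824 CPM in Nic-free 1 to 4 and 5655, 3572, 10666 and 23796 CPM in air 1 to 4, which spans a wide range within each group (log2 −0.54, adjusted p 0.788). With the choroid marker level as a covariate, an alternative chosen after seeing the data, 1242 genes (7.93%) were called, 1083 of them among the 1237. Alas2, the erythroid enzyme of heme synthesis, rose (log2 0.92, adjusted p 0.015), as 1 of 7 erythroid markers tested, 14.3% against 7.9% of all genes. Ighm, the immunoglobulin heavy chain of B cells, fell (log2 −0.45, adjusted p 0.00981), as 1 of 6 blood leukocyte markers tested of 16 (16.7% called). It was higher than in Room-air (log2 0.55, adjusted p 0.00072). Cspg5, 1 of 8 markers of oligodendrocyte precursors (12.5% called), rose (log2 0.39, adjusted p 0.0156, and 0.0514 without Nic-free 4). Of 11 markers of pituitary, hypothalamus and pineal, 4 were tested and none passed or had an unadjusted p under 0.05.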

How the data were processed

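The deposited values are raw counts of reads per Ensembl gene, 1 file per library. Per the submitters' processing notes the authors used STAR, HTSeq and the build mm10; versions and how strand was set are not given in the sources used here. Each file lists 39179 genes and 5 summary lines that name no gene, which were left out of totals and tests; 3 of these lines were at 0, and the no-feature line is reported as a share of all reads listed. The 13 protein genes of the mitochondrial genome are at 0 in all libraries. Symbols and positions of 37693 genes came from GENCODE M21 (GRCm38), sequences from RefSeq (GRCm38.p6).

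The 8 libraries were fitted in edgeR 4.0.16 (R 4.3.3, limma 3.58.1) with filterByExpr, TMM factors, robust dispersion and a two-sided quasi-likelihood test, adjusted by Benjamini-Hochberg over all genes tested. Nic-free and air were each compared with Room-air in separate fits. DESeq2 1.42.0, limma-voom, other scalings and filters, other sets of libraries and each library left out were alternatives. The script was tested on simulated data. CPM are counts divided by the total gene counts of the library. Single values were compared by an exact permutation test. Counting error only is covered by the depth, 9761373 to 19137859 counts per library, since reads carry no molecular identifiers.

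Named genes were a panel of 25, up to 4 called members per list with the lowest adjusted p, and, among genes other than pseudogenes, unnamed genes and Gm or Rik models, with non-overlapping groups and a mean of at least 2 CPM over the 8 libraries, the 12 largest rises, the 12 largest falls and the 10 lowest p-values. Other called members of a list were named after their values were seen. Some called genes that the rule names are not reported here. The members and lists were chosen with earlier results of these data known.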

Additional observations from a re-analysis of the deposited data

Results flagged for a closer look

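Each group of 4 libraries was searched for a library whose gap to the nearest other, over the range of the group, exceeded Dixon's 95% critical value. This was done in 250 groups, which included those of the named genes, and 12 had such a library, where chance flags about 1 group in 20. In the Nic-free group a library stood above the others for Fzd4 (10.39 CPM in Nic-free 1) and Alcam (210.4 CPM in Nic-free 4), and below them for Chrna4 (32.03 CPM in Nic-free 2, against 32.97 to 33.03 CPM in the others). In the air group air 2 stood above the others for S100b (435.7 CPM), Aif1 (11.58 CPM), Per1 (89.84 CPM) and Rora (69.97 CPM). Air 1 stood above them for Nfkbia (53.57 CPM), Klf6 (52.88 CPM) and Slc32a1 (104.1 CPM), and air 3 for Nrgn (1339 CPM). Air 1 stood below them for Chrna7 (2.39 CPM).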

How the results depend on the processing

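Over 19 alternatives, 94 of the 98 called genes that are named kept their sign, and 36 passed in every one. The count of 1237 calls (851 higher, 386 lower) was 699 (488 and 211) in a fit of all 19 libraries and 158 (132 and 26) when tested against a fold change of 1.2. With Room-air as the control it was 4190 (2125 and 2065). DESeq2 called 689 lower genes and the fit with both unexposed sets as control 668. Leaving out 1 library gave 544 to 1222 calls, 431 to 860 higher and 113 to 362 lower, of which air 4 left 226 lower. The difference in reads without a feature was 5.663 to 7.765 points with 1 library left out. The exact permutation p of that difference was 0.0571 with each air library left out in turn and 0.0286 with each Nic-free library left out. With a replicate block 451 genes were called (340 and 111). The correlation between deviations of same-numbered libraries was −0.447 to −0.009, and that of differently numbered ones −0.364 to 0.465. No label says whether the numbers pair the samples. These correlations cannot decide it, because they take in every difference between libraries, which can hide a pairing.

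Signs reversed as follows. Icam1 was at 0.0745 by limma-voom and 0.0653 with the replicate block, and Nqo1 at 0.0567 with the choroid covariate. With both unexposed sets as control, log2 fold changes were −0.37 for Ocln, −0.35 for Slc2a1, −0.20 for Abcb1a, −0.89 for Fzd4, −1.03 for Cdkn1a, −0.54 for Tsc22d3, −0.34 for Cyp1b1, −0.0189 for Lrp5, −0.0406 for Abcc9, 0.0627 for Mbp and 0.0422 for Ighm. With 1 library left out they ran from −0.0765 to 0.22 for Cdkn1a, −0.0457 to 0.53 for Fzd4, −0.24 to 0.42 for Icam1, −0.52 to 0.14 for Nqo1, −0.0106 to 0.28 for Nrgn, −0.22 to 0.0289 for Per2, −0.11 to 0.0096 for Tjp1, −1.42 to 0.19 for Ttr and −0.14 to 0.0718 for Vcam1. The cause of these changes was not tested. Of the 8 libraries those of air were the shallower, which limits genes of low level most.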

Other observations

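Genes outside the lists were also looked at by annotated type, after their values were seen. Of 142 processed pseudogenes tested, 28 (19.7%) were higher and 3 lower in Nic-free than in air, with a median log2 fold change of 0.27, against 5.35% higher and 2.59% lower of 14386 protein-coding genes. Of the 28, 25 overlap another gene on the same strand, as do 66 of the 142 tested. Among 23 microRNA genes tested, 2 (8.7%) were higher, against 5.43% of all genes, both at low levels of counts from polyadenylated RNA. Mir132 stood at 1.32, 0.742, 0.941 and 0.921 CPM in Nic-free 1 to 4 and at 0.231, 0, 0.222 and 0.189 CPM in air 1 to 4 (edgeR adjusted p 0.00722). It ran from 0.612 to 0.952 CPM in Nic, 0.328 to 1.01 CPM in smoke and 0.515 to 0.696 CPM in Room-air, all above the air values. Mir99a, inside Mir99ahg, stood at 1.64, 2.23, 1.93 and 2.57 CPM in Nic-free and at 0.925, 0.102, 0.371 and 0.849 CPM in air (adjusted p 0.0100). With the replicate block Mir99a did not pass (edgeR adjusted p 0.0575). The genes were also split by exon length into 3 parts. Those of greatest length had 6.48% higher and 3.25% lower, and those of least length 4.37% and 2.05%. Split likewise by genomic span, the longest had 6.38% and 2.96%, and the shortest 5.07% and 1.84%. Gabrb1, Adgrl3, Cdh13, Cntnap5a, Cntnap5c, Mir99ahg and Ano2 lay at percentiles 97.4 to 99.7 of span. C1ql3, Cdh1, Il6ra, Ccn1, Prg4, BC005561, Cd47, Nptxr, Rnf168 and Lypd1, which also rose, lay at 6.9 to 87.8. The part of span or of reads without a feature in these rises was not tested.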
